A study of Mus musculus with 10 samples.

Results

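Round spermatids (RS) were compared with diplotene spermatocytes (D), the germ cells on either side of the meiotic divisions, in the pooled scRNA-seq and scATAC-seq profiles of mouse testis. Genes entered the RNA comparison when the mean of both populations reached 0.05 UMIs (unique transcript copies) per 10000, which 14994 of 28125 genes did. The log2 ratio of RS over D was taken after 0.1 was added to both values, so that ratios of genes with little RNA are drawn towards 0. In scATAC-seq, 30573 of 30657 nuclear genes had a value in either population, and the log2 ratio of accessibility was taken on values per 1000000 after 1 was added to both. Both ratios existed for 14983 genes.

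The nuclei came from testes of wild-type mice at 11, 17 and 25 days postpartum (dpp), of 8-week-old Cre/+ mice, which carry the Stra8-Cre driver, and of 8-week-old Nfya-CKO mice, in which that driver deletes exons 5 to 6 of Nfya in germ cells on a C57BL/6J background. RNA and accessible chromatin were read together, with 1 library per condition and assay. Each population is 1 pooled column in each matrix, so no difference below has a replicate error or a p-value, and genes are counted by the size of their change. The sources used here do not say how many mice gave each library.

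Diplotene spermatocytes have finished recombination, still hold homologous chromosomes together at chiasmata, and are about to pass through both meiotic divisions. Round spermatids are their haploid products. They build the acrosome, the enzyme-filled cap that meets the egg, and start the sperm tail, while RNAs for later steps are made early and stored, because transcription stops once protamines replace histones in elongating spermatids (ES).

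The D population held 4145 of 45250 cells and 19878974 UMIs, and the RS population 7325 cells and 21474041 UMIs. Of the D cells, 52.9% were from Cre/+, 43.3% from the 25 dpp library and 98, 51 and 4 cells from the 17 dpp, 11 dpp and Nfya-CKO libraries. Of the RS cells, 77.0% were from Cre/+ and 22.9% from 25 dpp, and 3 D and 10 RS cells had no library name. The share of Cre/+ cells therefore differed between the populations, the pooled columns cannot be split by library, and the part of library in the differences below was not tested. The depth per nucleus was lower in RS within both libraries. The median was 4431.5 UMIs in D and 2379 in RS at 25 dpp, and 3128 and 2050 in Cre/+. Median scATAC-seq fragments were 6764.5 and 5879 at 25 dpp, and 15668 and 12664.5 in Cre/+. Some nuclei share a barcode with another library, 583 of the D cells (14.1%) and 623 of the RS cells (8.51%), and results without them could not be computed because the profiles are pooled.

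Marker genes were read in both populations. The authors named populations from marker genes in these same data, so higher round spermatid markers in RS are in part fixed by that naming. All 12 round spermatid markers were above D in RS, 10 of them by at least 2-fold, and their summed level was 3.73 UMIs per 10000 in middle and late pachytene spermatocytes (mP/lP), 8.82 in D, 25.7 in RS and 10.4 in ES. Of 10 diplotene and metaphase markers, Ccna1 and Pou5f2 were highest in D among the 9 germ cell populations, 5 others were highest in mP/lP, and the cell cycle phosphatase Cdc25c was highest in RS. Their summed level was 6.37 in mP/lP, 5.03 in D and 3.61 in RS, so this list went against the name D, which is kept here as the authors' name for the population. Of 10 pachytene markers 9 were highest in mP/lP, and their summed level was 90.0 there, 59.7 in D and 41.9 in RS. In scATAC-seq, where D was not a population of the cell table, 43.7% of the 3029 D nuclei with both assays were named mP/lP, 24.7% as spermatocytes in leptotene, zygotene and early pachytene (L/Z/eP), and 19.9% as RS. The order of the last names turned between the libraries, with 33.4% L/Z/eP and 11.8% RS at 25 dpp and 11.0% and 30.1% in Cre/+. Of 4835 such RS nuclei, 65.3% were named RS and 22.3% mP/lP. The share named RS was 67.2% in Cre/+ and 61.1% at 25 dpp, and 43.1% and 52.7% among nuclei with an enrichment of reads at transcription start sites (TSS) of at least 8.

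Spermatid markers were also detected in a population that comes before meiosis. The summed level of 10 elongating spermatid markers was 16.7 UMIs per 10000 in differentiating spermatogonia (diff. SpG), of which 84.5% of cells were from Cre/+, 19.8 in D, 51.0 in RS and 174 in ES, against 0.0274 in Sertoli cells, of which 0.0613% were from Cre/+. ES cells were 99.6% from Cre/+. Prm1, the major protamine gene, stood at 3.94 in diff. SpG and 4.11 in D. These values stand beside every spermatid gene described below, and the part of RNA from other cells in the D levels was not tested.

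Across the genome, fewer genes lay above D than below it, but more of them by at least 2-fold. At least 2-fold higher levels in RS were found for 1765 genes (11.8% of those tested), and at least 2-fold lower levels for 511 (3.41%). The median of all genes was -0.16 on the log2 scale and 41.5% of genes lay above 0. Centred on that median, the counts became 2355 higher and 263 lower, which moved the share of higher genes among the counted from 77.5% to 90.0%. A difference of 4-fold was reached by 16 genes upward and 10 downward, of which 9 belong to the Ugt1a locus.

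The genes higher in RS were mostly at their highest there over the whole of germ cell development, which their choice by RS over D in part fixes. Of the 1765, 85.4% had their highest level in RS and 12.01% in ES, against 25.4% and 13.4% of all genes past the filter. Their median level went from 0.0904 UMIs per 10000 in mP/lP to 0.263 in D, 0.839 in RS and 0.327 in ES. In earlier populations it was 0.0383 in undifferentiated spermatogonia, 0.163 in diff. SpG and 0.0118 in preleptotene spermatocytes. Of the 511 lower genes, chosen the same way, 55.4% were highest in mP/lP and 15.9% in D, against 11.8% and 4.05% of all genes. Their median was 1.74 in mP/lP, 1.55 in D and 0.584 in RS. By these medians, the higher levels of the former group and the lower levels of the latter begin before RS, with D in between. The line plot shows chosen single genes. Of these, Ccna1 and Cdk1 belong to neither group, and Ccna1 was highest in D. Many D nuclei were named mP/lP or RS by scATAC-seq, and the part of mixed nuclei in the D levels was not tested.

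**Figure D1:**
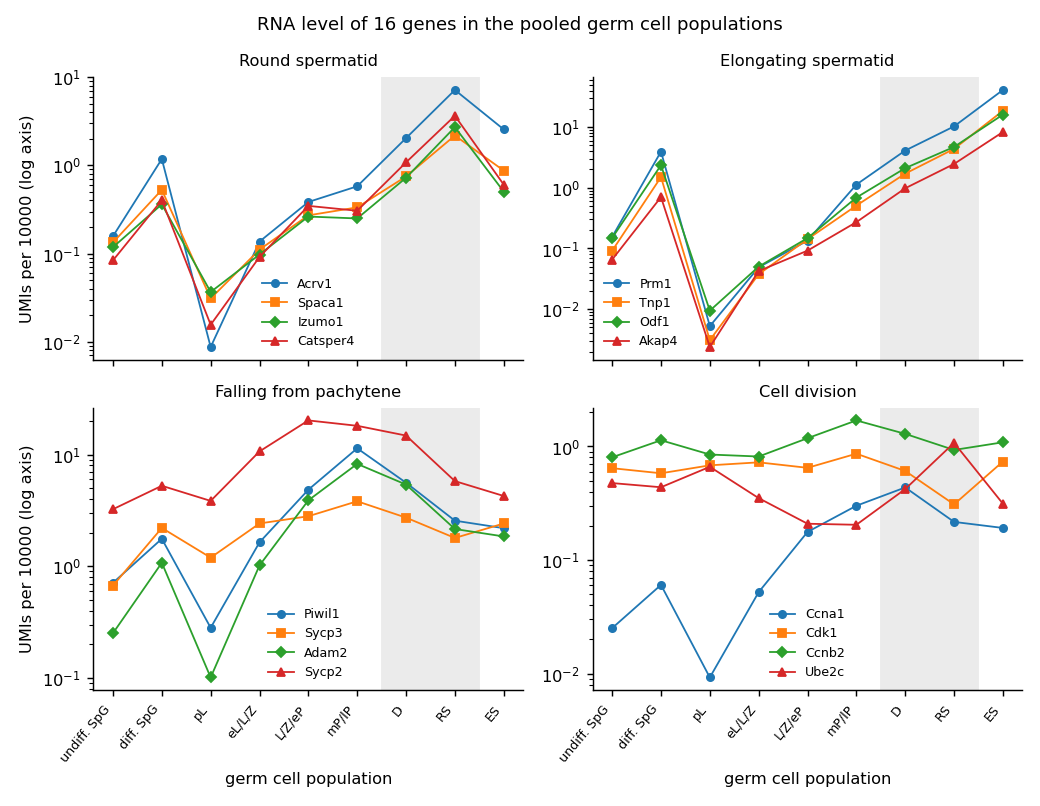
RNA level (UMIs per 10000, log axis) of 16 genes in the 9 germ cell populations in developmental order, with D and RS shaded. Each point is the value of 1 pooled population, so there are no error bars. Acrv1 goes from 2.04 in D to 7.19 in RS and down to 2.56 in ES, Prm1 goes on from 10.3 in RS to 40.8 in ES, and Piwil1 goes from 11.4 in mP/lP to 2.56 in RS. The high points in diff. SpG are those described in the text.

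Chromatin accessibility was higher in RS at most genes, and part of this lay in the scaling. Of all nuclear genes with a value, 5551 (18.2%) were at least 1.5-fold higher and 182 (0.595%) at least 1.5-fold lower. The median log2 ratio was 0.23, with 80.1% of genes above D. Mitochondrial genes took 48.6% of the signal in D and 40.2% in RS, which shifts nuclear genes by 0.22 before 1 is added to the values, and by other amounts at genes of low accessibility. With the scaling restricted to nuclear genes the median was 0.04, 55.4% of genes lay above D, and the counts were 4134 higher and 762 lower. The share of higher genes among the counted was 96.8% as reported, 84.4% with nuclear scaling and 78.7% after centring on the median (2850 higher and 770 lower). Within both libraries RS nuclei also had a lower share of reads in promoters, with a median fraction of 0.191 in D and 0.161 in RS at 25 dpp and of 0.136 and 0.117 in Cre/+, whose part in the ratios was not tested. Accessibility ratios below are on the reported scale and are to be read against 0.20, the median of genes with both assays.

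RNA and accessibility moved together mainly at the upper end. Among genes with both assays, 2283 (15.2%) had at least 1.5-fold higher and 29 (0.194%) at least 1.5-fold lower accessibility. Both limits were passed upward by 1032 genes (6.89%), which are 58.5% of the genes with higher RNA and 45.2% of those with higher accessibility. Only Gm10563 passed both downward (0.00667%), a gene at 1.13 UMIs per 10000 in D and 0.415 in RS with accessibility of 4.50 and 1.58 per 1000000. With nuclear scaling 8 genes did. The median accessibility ratio was 0.73 for genes with higher RNA, 0.10 for genes with lower RNA and 0.18 for the others. Of the genes with lower RNA, 0.196% also had accessibility at least 1.5-fold lower. Across the 14983 genes Pearson's r of the ratios was 0.52 and Spearman's rho 0.44. These are a description, since genes are not replicates and only part of the nuclei had both assays.

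**Figure D2:**
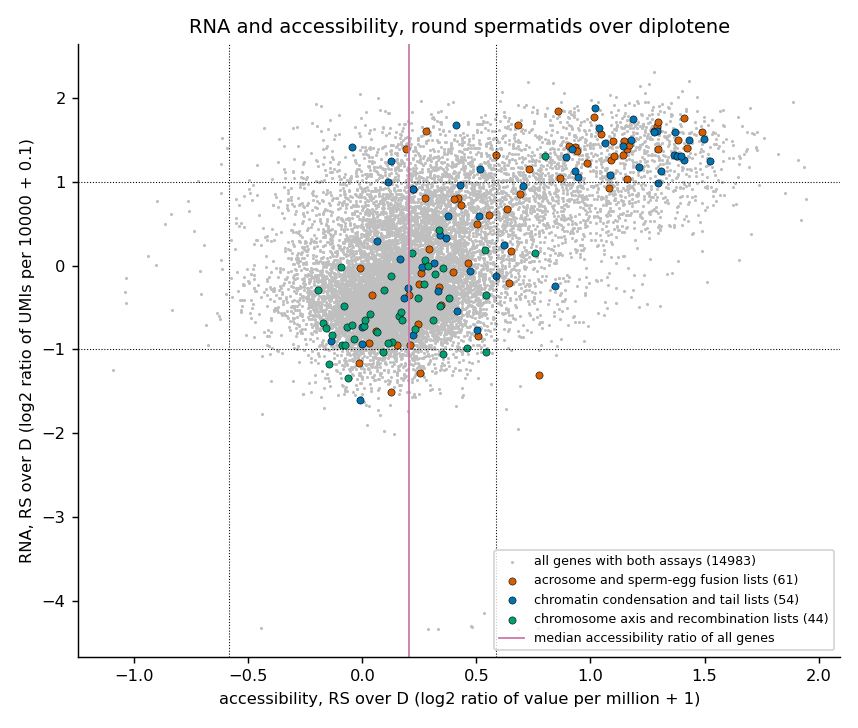
RNA log2 ratio against accessibility log2 ratio (RS over D) for 14983 genes, with genes of 3 pairs of lists in colour. Dotted lines mark 2-fold in RNA and 1.5-fold in accessibility, and the solid line marks the median accessibility ratio of all these genes (0.20). Genes for the acrosome, fusion, chromatin condensation and tail spread to the upper right, while chromosome axis and recombination genes lie mostly around that median with RNA below 0. The points at the bottom are the Ugt1a genes.

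The genes were put in order of accessibility ratio and cut into 10 groups of equal size. The group with the largest gain (a log2 ratio of at least 0.78) held 55.4% with at least 2-fold higher RNA and 0.133% with at least 2-fold lower RNA. The group below it held 21.9% and 1.20%. In the lowest group these shares were 5.07% and 4.47%. The median RNA ratio was 1.07 in the highest group and between -0.41 and -0.15 in the lowest 7.

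**Figure D3:**
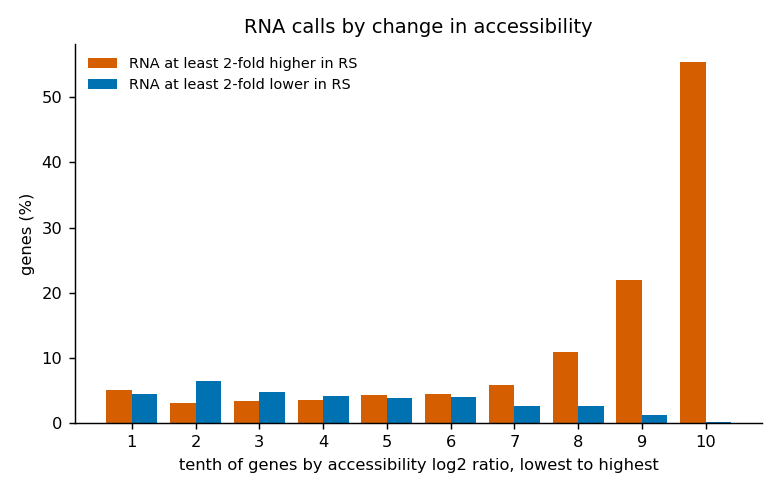
Share of genes (%) with at least 2-fold higher or lower RNA in RS in each of 10 equal groups by accessibility log2 ratio, from lowest to highest, over 14983 genes. The share with higher RNA is at most 5.87% in each of the lowest 7 groups and reaches 55.4% in the highest.

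Single genes were ranked among those with at least 1 UMI per 10000 in the higher population, a mean accessibility of at least 20 per 1000000, or both. Within these limits the genes with the largest gains in both assays included sperm genes and non-coding RNAs. Catsper4, which encodes a pore subunit of the sperm calcium channel, went from 1.08 to 3.66 UMIs per 10000 (log2 1.67) and from 13.8 to 45.9 per 1000000 in accessibility (1.66). Vwa3a, a gene of von Willebrand factor A domain type, went from 0.969 to 3.91 in RNA (1.91) and from 11.9 to 30.7 in accessibility (1.30). Zdhhc11, a palmitoyltransferase gene, went from 0.408 to 1.41 (1.57) and from 11.4 to 39.8 (1.72). The antisense gene Gm41002 next to it had near-equal accessibility, 11.1 and 39.3, and both may count the same fragments. Fam71e2 (0.645 to 2.5, accessibility 15.0 to 41.0), the lincRNA 1700030N03Rik (1.69 to 6.39, accessibility 11.5 to 36.3) and the antisense Gm11149 (0.861 to 3.42, accessibility 11.9 to 31.8) complete the leading 6. Past the accessibility minimum alone, the largest gain in accessibility was at Hk1, the hexokinase of the sperm tail (8.41 to 32.3, log2 1.82), with RNA of 1.18 in D, 3.12 in RS and 6.21 in ES.

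At the other end, none of the 6 genes with the lowest joint ratios past both minimums lost 1.5-fold of accessibility. Gm10563, which did, lies under the minimum for accessibility, and with nuclear scaling Cc2d2b passed the limit too (-0.62). Lrrc71, a leucine-rich repeat gene, went from 5.53 to 1.53 UMIs per 10000 (-1.79) at accessibility of 32.1 and 33.9 (0.08, or -0.14 with nuclear scaling). Cc2d2b went from 1.83 to 0.645 (-1.38) at 24.3 and 18.1 (-0.40). The other 4 of the lowest 6 were piRNA-producing loci or shared the values of one. The lincRNA 4930444F02Rik has the same 4 values as the locus 10-qA3-2592, with RNA of 5.12 in D and 1.70 in RS and accessibility of 24.4 and 20.2. The largest losses of accessibility where the mean reached 20 per 1000000 were at genes with at most 0.504 UMIs per 10000 in D. These were the transcription factor genes Egr4 (32.2 to 19.4, log2 -0.71) and Ovol2 (32.8 to 20.9, -0.62), the antisense 1700108N11Rik that overlaps Ovol2 (35.5 to 24.4), the replication checkpoint gene Clspn (33.6 to 23.9), Mvd (33.3 to 24.0) and Steap1 (26.4 to 19.3).

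Few genes passed both limits in opposite senses, but RNA often changed without a called change in accessibility. Of the genes with higher RNA, 732 had no such gain in accessibility. Of the 511 with lower RNA, only 0.196% had such a loss. RNA was at least 2-fold higher at 4 of the 29 genes with at least 1.5-fold lower accessibility, against 11.8% of all genes. These were 1700019D03Rik, Arhgef6, Myo1h and Gm35822, all with accessibility of at most 5.31 per 1000000 in D. The reverse held for 10 of the 511 genes with lower RNA, against 15.2% of all. Of the 10, 3 belong to the Ugt1a locus. With nuclear scaling the counts of 4 and 10 became 10 and 6. Among the 10 genes with lower RNA was Spata16, needed for acrosome formation, with RNA of 7.99 in D and 3.19 in RS (-1.30). Its accessibility of 13.5 and 23.9 (0.78) falls just short of the limit with nuclear scaling (0.58). Past both minimums, the RNA ratio exceeded the accessibility ratio by most at Slc25a35, a mitochondrial carrier gene (RNA 0.237 to 1.21, log2 1.96), P2rx3, a purinergic ion channel gene (1.35 to 5.44, 1.93), Tnrc18 (1.26 to 4.26, 1.68) and Dram1 (0.428 to 1.48, 1.58), whose accessibility ratios were 0.26, 0.37, 0.01 and 0.03. Hook2, for a microtubule linker protein, showed the opposite, with RNA of 2.71 and 0.741 (-1.74) and accessibility of 41.3 and 47.6 (0.20).

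Promoters of 5 genes are shown because their genes stand for the patterns described: Catsper4, Acrv1 and Izumo1 for gains in both assays, and Lrrc71 and Piwil1 for lower RNA without a 1.5-fold loss of accessibility. Each is the 150 bases before the RefSeq start on GRCm38.p6, 5′ to 3′ on the gene's strand, and capitals mark matches to TGACGTCA (the cAMP response element), CCAAT (bound by NF-Y), CACGTG (an E-box), CAGTTG (a MYB site), GTTGCC (an RFX half-site) and TATAAA, searched on both strands. They lie at chr4:134227384-134227533 (minus strand), chr9:36693070-36693219 (plus), chr7:45621661-45621810 (plus), chr3:87748624-87748773 (minus) and chr5:128736096-128736245 (plus).
Catsper4: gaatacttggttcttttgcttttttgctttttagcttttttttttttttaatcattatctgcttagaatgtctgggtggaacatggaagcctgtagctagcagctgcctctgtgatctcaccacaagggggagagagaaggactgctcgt
Acrv1: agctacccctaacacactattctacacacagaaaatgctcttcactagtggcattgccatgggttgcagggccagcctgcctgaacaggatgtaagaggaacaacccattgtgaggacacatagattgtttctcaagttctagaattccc
Izumo1: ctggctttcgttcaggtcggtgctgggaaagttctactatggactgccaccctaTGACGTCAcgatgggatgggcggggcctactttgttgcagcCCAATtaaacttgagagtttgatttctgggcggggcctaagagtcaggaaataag
Lrrc71: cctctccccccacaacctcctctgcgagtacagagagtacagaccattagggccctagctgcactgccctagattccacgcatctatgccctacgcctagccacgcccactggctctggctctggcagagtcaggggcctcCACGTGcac
Piwil1: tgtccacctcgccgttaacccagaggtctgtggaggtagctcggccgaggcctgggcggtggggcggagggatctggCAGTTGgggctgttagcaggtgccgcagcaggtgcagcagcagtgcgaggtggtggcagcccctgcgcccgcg
Izumo1 holds both TGACGTCA and CCAAT, Lrrc71 an E-box and Piwil1 a MYB site, and the other two windows hold none of these letters, which says nothing of the factors.

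Promoters of the groups also differed in CpG content. The median ratio of observed to expected CpG in the 250 bases before the start was 0.70 over the 10944 promoters matched to genes with both assays, 0.28 for genes with higher RNA, 0.20 for those with both measures higher and 0.74 for genes with lower RNA, while genes with higher RNA and no such gain in accessibility stood at 0.51. Over all 27025 promoters of the table it was 0.38. Of the shown promoters, Acrv1 had no CpG in this window (0.00) and Catsper4 stood at 0.0784, Lrrc71 at 0.341, Izumo1 at 0.430 and Piwil1 at 0.567. An E-box was found in 8.05% of promoters of genes with both assays, 3.44% where both measures were higher and 12.2% where RNA was lower. An RFX half-site was found in 11.8%, 16.5% and 10.2%, a MYB site in 9.59%, 12.8% and 14.2%, and CCAAT in 36.3%, 32.7% and 34.7%. TGACGTCA was found in 2.77%, 2.34% and 1.42%, and TATAAA in 7.20%, 11.4% and 6.53%. These shares rest on 10944, 727 and 352 promoters.

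Gene lists by role had median RNA ratios from 1.26 for sperm-egg fusion down to -0.75 for piRNA-producing loci, against -0.16 for all genes. Not every list of sperm genes stood high. The medians of the lists for spermatid kinases, energy metabolism, axoneme, and CatSper and sperm ion transport were 0.09, 0.00, -0.17 and -0.30. Shares given with the lists are to be read against all genes, of which 11.8% were higher and 3.41% lower in RNA, and 15.2% and 0.194% in accessibility.

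**Figure D4:**
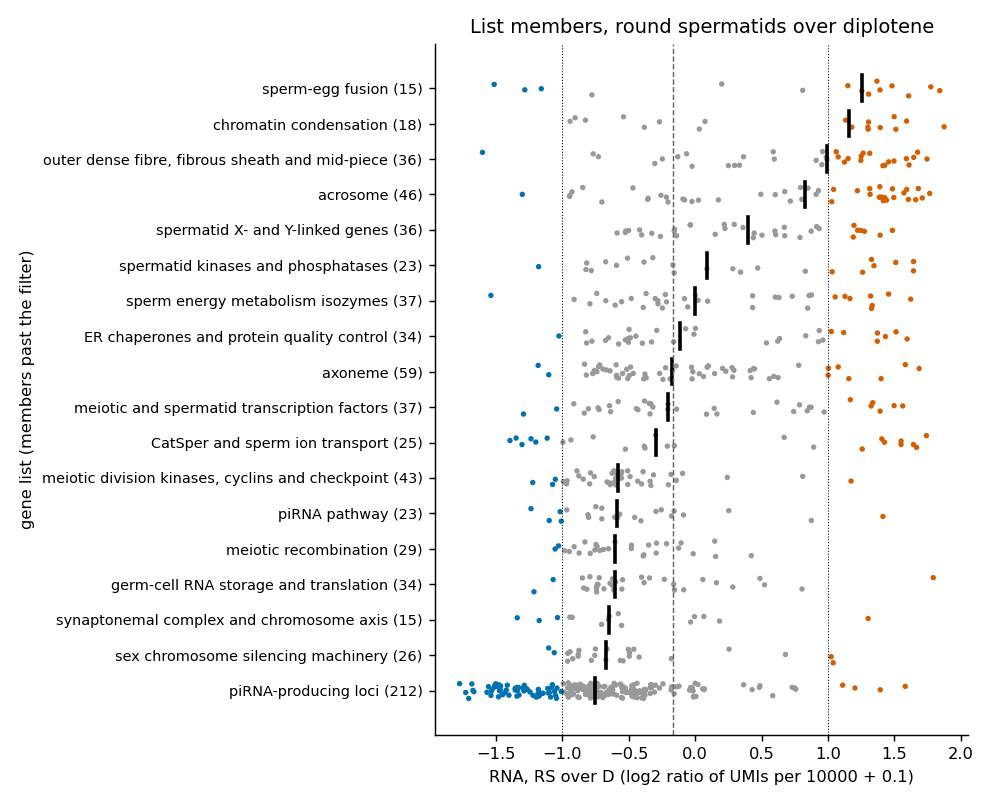
RNA log2 ratio (RS over D) of each member of 18 gene lists, with the number of members past the filter in brackets, a black bar at the list's median, a dashed line at the median of all genes (-0.16) and dotted lines at 2-fold. Orange and blue points lie past 2-fold. Lists for fusion, chromatin condensation, tail sheath and acrosome have medians of 0.83 or more, and lists for meiosis lie between -0.58 and -0.67.

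In the division machinery 39 of the genes past the filter differed by less than 2-fold. Of 44 kinases, cyclins and checkpoint genes, 43 passed the filter, 1 (2.33%) was at least 2-fold higher in RS and 3 (6.98%) were lower, with a median of -0.58 in RNA and 0.14 in accessibility. The higher one was Ube2c, the ubiquitin-conjugating enzyme of the anaphase-promoting complex, at 0.421 UMIs per 10000 in D and 1.08 in RS (1.17). Lower were Fbxo43, an inhibitor of that complex (1.46 to 0.571, -1.22), Cks2, a subunit of cyclin-dependent kinases (1.12 to 0.482, -1.07), and Incenp of the chromosomal passenger complex (0.779 to 0.324, -1.05). Ccna1, the cyclin needed for male meiosis I, went from 0.436 to 0.217 and Cdk1, the kinase that drives division, from 0.609 to 0.309, both short of 2-fold with 0.1 added. Cdc25c, which activates Cdk1, was at 0.263 and 0.537 (0.81). No member passed the accessibility limit in either direction on the reported scale, and with nuclear scaling Ccnb3 was lower (-0.63).

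Genes of the chromosome axis and synaptonemal complex, which hold paired chromosomes together, lay lower. Of 20 symbols, 17 were in the matrix and 15 passed the filter, with 1 higher (6.67%), 3 lower (20%) and a median of -0.65. Sycp2, an axis protein gene, went from 14.8 to 5.79 (-1.34), 4930447C04Rik (Six6os1, a central element gene) from 3.67 to 1.57 (-1.17) and Hormad1, which marks unpaired axes, from 2.36 to 1.10 (-1.04). The meiotic cohesin gene Rec8 went the other way, from 0.390 to 1.11 (1.30), and its accessibility from 24.1 to 42.7 (0.80). Rec8 was highest in RS among all germ cell populations.

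Recombination genes followed with a median of -0.60. Of 35 symbols 29 passed, none was at least 2-fold higher and 2 were lower, the mismatch repair gene Mlh3 (1.05 to 0.453, -1.05) and the strand exchange gene Brca2 (3.05 to 1.44, -1.03). Genes for silencing of the sex chromosomes had a median of -0.67, with 26 of 29 past the filter, 2 higher and 2 lower. Mdc1, a gene of the DNA damage signal on the sex chromosomes, went from 2.24 to 0.991 (-1.10) and the heterochromatin gene Cbx1 from 1.55 to 0.692 (-1.06). The ubiquitin ligase genes Rnf168 (1.08 to 2.32, 1.04) and Brca1 (0.915 to 1.97, 1.02) were higher and were highest in RS.

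The piRNA pathway silences transposons and, in pachytene, makes piRNAs from long non-coding transcripts. The median RNA ratios of its protein genes and of its source transcripts lay below that of all genes. Of 24 protein genes 23 passed, with a median of -0.58, 4 lower and 1 higher. Piwil1, the pachytene PIWI protein, went from 5.6 to 2.56 (-1.10), Tdrd12 from 1.64 to 0.638 (-1.24), the helicase gene Mov10l1 from 2.67 to 1.27 (-1.02) and Tdrd5 from 1.42 to 0.657 (-1.01). Kif17, a kinesin gene, was higher (0.874 to 2.49, 1.41). Of 215 piRNA-producing loci in the matrix 212 passed, 60 (28.3%) were at least 2-fold lower, 4 were higher and the median was -0.75. These loci were grouped by the form of their names and not by stage, and 121 of the 215 were highest in mP/lP. The values are therefore not those of pachytene loci alone. Their summed level was 189 UMIs per 10000 in diff. SpG, 561 in mP/lP, 366 in D and 181 in RS. The accessibility limit was passed upward by 5 of these loci and downward by none. Their median accessibility ratio was 0.07, or -0.14 with nuclear scaling. Of the 212, 51 lay above the median ratio of all genes, so that most had a lower ratio than that median. The locus 2-qF1-2536 went from 16.01 to 4.98 (-1.67) at accessibility of 18.5 and 18.7, and the locus 10-qC1-875 from 2.97 to 0.799 (-1.77) at 17.6 and 12.7 (-0.44). In the genes with both assays, 32 share all 4 values with another gene, 16 of them piRNA loci that carry a second name.

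Of 38 transcription factor symbols 37 were in the matrix and passed the filter, with 6 higher (16.2%), 2 lower (5.41%) and a median of -0.20, not far from the shares of all genes. Higher were Fhl5, a co-activator of CREM (0.484 to 1.62, 1.56), Hmgb4 (0.633 to 1.97, 1.498), Sox5 (1.03 to 2.87, 1.39), Spz1 (0.531 to 1.49, 1.34), Klf17 (0.153 to 0.533, 1.33) and Rfx1 (0.685 to 1.66, 1.17). Crem, the activator of many spermatid genes, was itself at 2.05 and 3.8 (0.86), short of 2-fold. Lower were Zfp541 (2.62 to 1.01, -1.29) and Meioc (2.11 to 0.973, -1.04), both regulators of meiotic prophase. Mybl1, the pachytene MYB factor, was at 1.19 and 0.583 (-0.91). Accessibility was at least 1.5-fold higher at 6 members and lower at Egr4 and Ovol2.

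Acrosome genes were higher as a group. Of 48 symbols 46 passed the filter, 20 were at least 2-fold higher (43.5%) and 1 lower (2.17%), and the medians were 0.83 in RNA and 0.61 in accessibility, where 24 members (52.2%) passed the limit upward and none downward. Acrv1, for a protein of the acrosomal matrix, went from 2.04 to 7.19 (1.77) and its accessibility from 11.6 to 32.5 (1.41). Sun5, which joins the sperm head to the tail, went from 1.19 to 4.10 (1.71), Spag4 from 1.55 to 5.18 (1.68) and Spaca3 from 0.932 to 3.16 (1.66). Spaca1, needed to shape the acrosome, went from 0.749 to 2.19 (1.43) and Spam1, the sperm hyaluronidase, from 0.482 to 1.63 (1.57). Spata16 was the only member at least 2-fold lower, and Dpy19l2, which anchors the acrosome to the nucleus, was at 1.31 and 0.633 (-0.94).

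Members of the list drawn up for sperm-egg fusion, which includes ADAM genes, went both ways. Of 18 symbols 15 passed, 9 were higher (60%) and 3 lower (20%), with a median of 1.26. Izumo1, the sperm ligand of the egg receptor Juno, went from 0.725 to 2.72 (1.77) and from 12.8 to 26.8 in accessibility (1.01). Spaca6 went from 0.846 to 3.29 (1.84), Izumo2 from 0.615 to 2.08 (1.61) and Dcst1 from 0.294 to 1.0 (1.48). Lower were Izumo4 (1.79 to 0.564, -1.51), Adam2 (5.39 to 2.16, -1.28) and Adam3 (5.16 to 2.26, -1.16). Izumo4 and Adam2 were highest in mP/lP, Adam3 in D, and accessibility of these 3 genes stood at ratios of 0.13, 0.25 and -0.02.

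The protamine and transition protein genes Prm1, Prm2, Prm3, Tnp1 and Tnp2 were higher in RS and higher again in ES. Of 31 symbols of the chromatin condensation list 24 were in the matrix and 18 passed the filter, 10 were at least 2-fold higher (55.6%) and none lower, with medians of 1.16 in RNA and 0.91 in accessibility. The 6 that did not pass were the histone genes Hist1h1t, Hist1h2ba, Hist1h2aa, H2afb1, H2al1a and H2al1b, and with all 24 the RNA median was 0.09. Chd5, a chromatin remodeller of spermatids, went from 1.31 to 5.07 (1.87) and stood at 2.96 in ES. Prm1 went from 4.11 to 10.3 (1.30) and 40.8 in ES, Tnp1, a transition protein gene, from 1.71 to 4.37 (1.31) and 18.5, and Tnp2 from 4.16 to 11.1 (1.39) and 49.3. Hils1, a spermatid linker histone, went from 0.432 to 1.42 (1.51) and from 15.6 to 46.0 in accessibility (1.497). Diff. SpG held 1.5 of Tnp1, so the D levels of these genes lie near the level of a population that precedes meiosis.

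Of 36 genes for the outer dense fibres, fibrous sheath and mid-piece, 17 were higher (47.2%) and 1 lower (2.78%), with medians of 0.99 and 0.55 in accessibility, where 18 passed the limit upward. Odf3 went from 1.41 to 4.97 (1.75), Cabyr, a calcium-binding sheath protein, from 0.755 to 2.63 (1.68), and Smcp, of the mitochondrial capsule, from 2.05 to 6.36 (1.59). Akap4, the main sheath protein and an X-linked gene, went from 0.981 to 2.47 (1.248) and 8.29 in ES, and its accessibility from 8.76 to 27.1 (1.52). Sept12, of the ring between mid-piece and principal piece, was the lower one (4.90 to 1.55, -1.60). Of 59 genes of the axoneme, the beating core, 7 (11.9%) were higher and 2 (3.39%) lower, close to the 11.8% and 3.41% of all genes, with a median of -0.17. Spag6 (1.01 to 3.47, 1.69) and Dnah3 (1.62 to 5.05, 1.58) led upward, and the dynein genes Dnah2 (4.61 to 1.98, -1.18) and Dnaic2 (0.419 to 0.142, -1.10) were lower.

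Subunits of the same sperm channel went opposite ways. Of 25 genes for CatSper and sperm ion transport, 8 were higher (32%) and 6 lower (24%). The pore subunit genes Catsper1 (0.316 to 1.29, 1.74), Catsper3 (0.407 to 1.38, 1.55) and Catsper4 were higher, while Catsper2, the other pore subunit of the list, was lower (5.28 to 2.39, -1.11). The auxiliary subunit genes Catsperd (4.94 to 1.88, -1.35) and Catsperg1 (7.45 to 3.19, -1.20) were lower, and Efcab9, the calcium sensor of the channel (0.343 to 1.09, 1.43), and Tmem262 (0.188 to 0.588, 1.26) were higher. Among other transporters, the sperm potassium channel gene Kcnu1 (1.17 to 3.61, 1.55), its partner Lrrc52 (0.110 to 0.457, 1.41) and the sodium pump gene Atp1a4 (0.486 to 1.73, 1.64) were higher, and the exchangers Slc9c1 (1.87 to 0.650, -1.39), Slc26a8 (2.13 to 0.804, -1.30) and Slc9b1 (2.77 to 1.12, -1.24) were lower. Accessibility was at least 1.5-fold higher at 8 members and lower at none. Catsper1 went from 8.53 to 26.6 (1.53), Catsper3 from 7.61 to 20.7 (1.34) and Catsper2 from 60.8 to 71.4 (0.23).

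Spermatid kinases showed 7 higher (30.4%) and 1 lower (4.35%) of 23. Tsks, a substrate of the testis-specific serine kinases, went from 1.97 to 6.37 (1.64), Camk4, a calmodulin kinase of spermatids, from 0.390 to 1.43 (1.64), and Tssk3 from 0.584 to 1.64 (1.35). Mapk15 was lower (3.94 to 1.69, -1.18). For energy metabolism 8 of 37 were higher (21.6%) and 1 lower, with a median of 0.00. The sperm isozyme Gapdhs went from 1.55 to 4.44 (1.46), the fatty acid enzyme gene Acsbg2 from 1.09 to 3.57 (1.62) and the cytochrome oxidase subunit gene Cox6b2 from 5.73 to 14.6 (1.33), while the phosphofructokinase gene Pfkp was lower (1.65 to 0.501, -1.54). For chaperones and protein quality control 7 of 34 were higher (20.6%), among them Pdilt (0.681 to 2.26, 1.60), a testis disulphide isomerase homolog, and Cct6b, a chaperonin subunit, was lower (1.91 to 0.889, -1.02). Genes for RNA storage and translation had a median of -0.61, with 1 of 34 higher (2.94%), Samd4 (1.07 to 3.97, 1.79), and 2 lower (5.88%), Rbm44 (0.992 to 0.371, -1.21) and Rbm46 (1.76 to 0.789, -1.07).

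The X chromosome, silenced in pachytene and partly so in spermatids, was compared with the autosomes. Its summed level was 225 UMIs per 10000 in undifferentiated spermatogonia, 56.6 in mP/lP, 105 in D, 125 in RS and 176 in ES. Of 450 X-linked genes past the filter 37 (8.22%) were at least 2-fold higher and none lower, with a median RNA ratio of 0.00, against 11.95% higher, 3.16% lower and a median of -0.16 over 14087 autosomal genes. The count of none rests on the 0.1 added to the levels, without which 39 X-linked genes were at least 2-fold lower and 110 higher. Of the 12626 protein-coding genes past the filter on all chromosomes, 1419 were at least 2-fold lower with nothing added. The difference of the medians, 0.16, lay between 0.0028 without the filter on low values and 0.62 against mP/lP, and was 0.40 with a mean of at least 0.2, 0.24 with 0.01 added and 0.069 with 0.5 added. The accessibility ratio of RS over D was lower for X-linked than for autosomal genes, with a median of 0.05 against 0.21. The X held 11 of the 29 genes that lost at least 1.5-fold. Levels of accessibility on the X and the autosomes were not compared. The lowest autosomal median was 0.18, on chromosome 17. Over all 1051 X-linked genes in scATAC-seq the median was -0.02, with 7.14% higher and 4.66% lower, against 18.8% and 0.430% on autosomes.

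**Figure D5:**
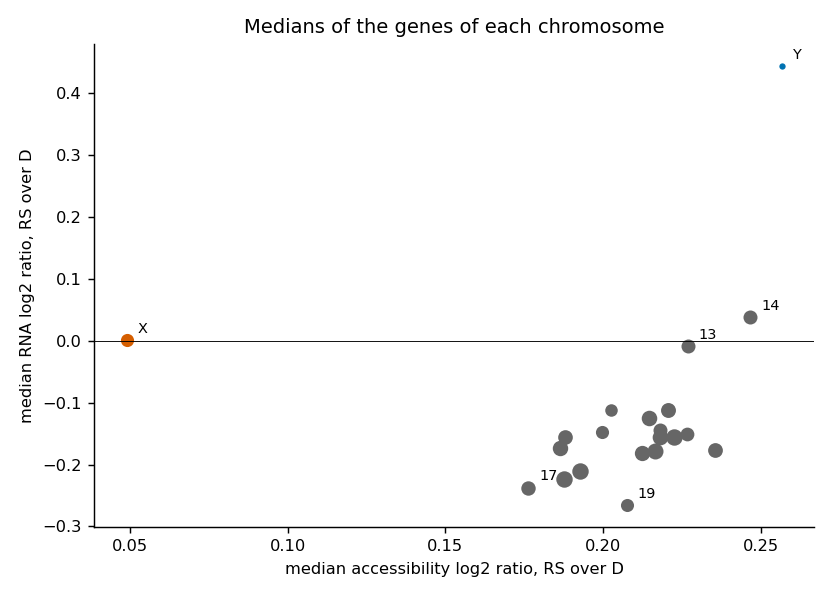
Median RNA log2 ratio against median accessibility log2 ratio (RS over D) of each chromosome, with point size by number of genes. Autosomes lie between 0.18 and 0.25 in accessibility, the X lies at 0.05, and the Y rests on 24 genes in RNA and 23 in accessibility.

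Among X-linked genes the largest RNA ratios were those of Cstf2, for a polyadenylation factor (0.540 to 1.79, 1.56), Gm595 (0.862 to 2.67, 1.53) and Gm15104 (0.157 to 0.613, 1.47). The lowest were those of Xist (0.314 to 0.109, -0.99), Pet2 (1.92 to 0.929, -0.97) and the cyclin gene Ccnb3 (0.509 to 0.212, -0.96). The largest accessibility ratios were at Akap4 and at Asb12 (3.32 to 10.3, 1.38). On the list of 66 spermatid X- and Y-linked genes, 36 passed the filter, 7 were higher and none lower, with a median of 0.40. Of the others, 23 were in the matrix under the filter, which lets low genes pass through a higher RS level, and over all 59 the median was 0.15. With nothing added to the levels 1 of the 36 was at least 2-fold lower. The genome annotation puts 1 of the 7, Cypt4 (0.257 to 0.901, 1.49), on chromosome 9. Of the Y genes, the zinc finger gene Zfy2 was at 0.507 and 1.01 (0.87), while its near copy Zfy1 was at 0.297 and 0.260. Members of multicopy families such as Sly and the Cypt genes are uncertain, because the authors kept only reads with a single place in the genome, and reads that fit several copies were lost.

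Among genes with at least 1 UMI per 10000 in the higher population, the largest RNA differences were at 1 locus and at non-coding RNAs. Ugt1a genes, for enzymes that join glucuronic acid to steroids and drugs, took 9 of the 12 largest decreases. Ugt1a7c stood at 0.0311 in mP/lP, 2.14 in D, 0.0110 in RS and 0.0948 in ES (-4.34), and Ugt1a1 at 0.0204, 1.76, 0.00511 and 0.0581 (-4.14). All 9 overlap Ugt1a1 at chr1:88211959-88218997, where the exons they share lie, and count as 1 locus. Ugt1a7c was at most 0.0948 in each germ cell population other than D, and the files do not show from which library or cells the D signal comes. The other 3 of the 12 were Ifitm7, of the interferon-induced membrane proteins (1.36 to 0.263, -2.01), the antisense Gm16158 (2.06 to 0.446, -1.98) and the lincRNA 4933400L20Rik (1.99 to 0.442, -1.95). Of the 12 largest increases 11 were lincRNA or antisense genes, among them 1700020G17Rik, the largest (1.61 to 8.37, 2.31, accessibility 7.53 to 19.7), Gm43016, the next (0.629 to 3.25, 2.20), and Gm29825 (1.61 to 7.57, 2.17). The protein-coding one was Pcdh9, a protocadherin gene (0.996 to 4.45, 2.05), whose accessibility stood at 9.42 and 9.33.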

How the data were processed

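The authors aligned scRNA-seq reads with STAR 2.7.10b and scATAC-seq reads with BWA 0.7.12 to mm10, filtered cells and removed doublets with Seurat 5.2.1 and DoubletFinder or ArchR 1.0.3 (versions and bedtools 2.27.1 per the submitters' processing notes), and named populations from markers. They deposited per cell the count of UMIs or fragments, the percent of mitochondrial UMIs, TSS enrichment as a ratio and the fraction of reads in promoters. The authors deposited 1 matrix per assay with pooled values of 13 populations on a natural log scale. From the values, exp(value) - 1 sums to 10000 per population, and the sources used here do not say which region the scATAC-seq matrix counts per gene. For merged tracks the authors defined promoter accessibility by mean coverage close to the start site, and whether the matrix follows this is not stated. How nuclei were put into the scATAC-seq column for D, a name that the scATAC-seq cell table lacks, is not given either. 18 columns of these tables were not used.

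RNA was compared as log2((RS + 0.1)/(D + 0.1)) with a mean of at least 0.05, and accessibility as values per 1000000 + 1, with Python 3.11.15, numpy 2.4.6, pandas 2.3.3, scipy 1.17.1 and matplotlib 3.10.9. The code for ratios and counts was run on values with changes set in advance and no noise. This tests the code only and not the effect of depth, low levels or scaling. Limits were 2-fold for RNA and 1.5-fold for accessibility. Genes named were the 12 largest RNA changes in each direction with at least 1 UMI per 10000 in the higher population, the 6 largest accessibility changes in each direction with a mean of at least 20 per 1000000, the 6 largest joint changes and the 4 most opposed in each sense past both minimums, and members of the lists. The genes past both limits in opposite senses, and the X and Y genes with the largest ratios, were named after their values were seen. Gene lists and members were chosen with earlier results of these data known, and the piRNA loci and ribosomal proteins were grouped after the files were seen, by the form of their names. Positions and gene types are from GENCODE M21 (27414 of 28125 genes matched by name) and promoters from RefSeq on GRCm38.p6, the build of mm10. Depth limits the low levels: total UMIs are given with the cells above, the weight of 1 UMI differs between cells, and so no interval was computed for the pooled values. Shares of cells have exact Clopper-Pearson 95% intervals in the tables, which cover counting error only. Overlapping and antisense genes may share reads, since the use of strand in counting is not given in the sources used here.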

Additional observations from a re-analysis of the deposited data

How the results depend on the processing

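No paired analysis was possible because each population is 1 pooled column of 1 library per condition, and no library could be left out. The limits set the counts by construction. RNA counts of higher and lower genes were 3415 and 3015 at 1.5-fold and 16 and 10 at 4-fold, 3089 and 1494 with 0.01 added, 497 and 129 with 0.5 added, and 3200 and 1430 with mP/lP as the earlier population. Centred on the median, 263 were lower. Accessibility counts were 11763 and 939 at a limit of 25%, 1541 and 9 at 2-fold, 2850 and 770 centred, 1381 and 6 with a mean of at least 10 per 1000000, 1749 and 1 with 5 added, and 16298 and 87 against mP/lP. The lower count was 591 with 0.1 added and 762 with nuclear scaling. Genes higher in both assays numbered 1610 (1.5-fold in RNA), 14 (4-fold in RNA), 580 (2-fold in accessibility), 1632 (0.01 added), 336 (0.5 added), 673 (mean of at least 10) and 2548 (against mP/lP). Genes lower in both numbered 9 (25% in accessibility), 5 (1.5-fold in RNA), 4 (0.01 added), 8 (centred or nuclear scaling), 2 (0.1 added to accessibility) and 0 (4-fold, 0.5 or 5 added, mean of at least 10, or against mP/lP). Without the RNA filter Pearson's r was 0.39. Of the ratios past the limit as reported, 5 changed sign, all in accessibility against mP/lP, to 0.49 at 1700019D03Rik, 0.046 at Gm10563, 0.36 at Gm35822, 0.060 at Myo1h and 0.25 at Ovol2, and the cause was not tested. Limits on cells changed some shares. Without them D made up 18.3% of Cre/+ and 9.96% of 25 dpp cells, and RS 47.0% of Cre/+ cells. Of paired nuclei, 52.2% of Cre/+ D were then named mP/lP, and 67.2% of Cre/+ and 61.1% of 25 dpp RS were named RS. D made up 17.5% of Cre/+ cells with under 2% mitochondrial UMIs and 12.3% of 25 dpp cells with at least 1000 genes, where RS made up 37.9% of Cre/+. With a TSS enrichment of at least 8, 56.5% of paired Cre/+ D nuclei were named mP/lP by scATAC-seq, and 43.1% of Cre/+ and 52.7% of 25 dpp RS nuclei were named RS. With at least 3000 fragments the Cre/+ shares were 47.9% and 77.6%. Single genes and lists were read at each alternative setting, and 1065 of these pairs of value and setting stayed within 1.5-fold while 99 moved further. Many pairs for single genes could not move. A filter on the RNA mean leaves the ratio of a gene unchanged, and centring shifts all ratios alike by less than 1.5-fold. The 1065 are therefore no measure of how firm the values are. Sign changes of single genes under the limit as reported numbered 19, of which 7 were in accessibility against mP/lP, among them 1700108N11Rik, Cc2d2b and Clspn.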

Other observations

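Gene types past the filter differed in their change from D to RS. Of 1215 lincRNA genes 28.1% were at least 2-fold higher in RS RNA, with a median log2 ratio of 0.65, and 48.7% were at least 1.5-fold higher in accessibility, with a median of 0.56. Of 705 antisense genes the shares were 26.5% and 38.2%, with medians of 0.53 and 0.40. Of 12626 protein-coding genes they were 9.42% and 10.7%, with medians of -0.21 and 0.19. At least 2-fold lower RNA was found for 3.87% of lincRNA, 3.55% of antisense and 2.95% of protein-coding genes. The filter lets low genes pass through a higher RS level, and 3065 lincRNA, 1843 antisense and 7663 protein-coding genes lay under it. Without it the shares with at least 2-fold higher RNA were 7.99%, 7.34% and 5.86%, and the medians 0.03, 0.02 and -0.02, so the size of the difference rests on the filter.

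Ribosomal protein genes, which make up the translation machinery, lay below D together in RNA. All 75 that passed the filter were below D, with a median of -0.60, and 2 were at least 2-fold lower. Their summed level was 133 UMIs per 10000 in diff. SpG, 107 in mP/lP, 88.1 in D, 56.9 in RS and 91.0 in ES. Their median accessibility ratio was 0.21.

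Genes highest in premeiotic populations had median RNA ratios below that of all genes, but few passed the limit. The choice of genes by a peak outside RS in part fixes this. The median was -0.28 over 2293 genes highest in undifferentiated spermatogonia, of which 1.66% were at least 2-fold higher and 1.09% lower. It was -0.42 over 2400 genes highest in preleptotene spermatocytes, with 0.125% higher and 2.33% lower. Over all genes the shares were 11.8% and 3.41%. Of the 9 Sertoli cell markers past the filter none was above D in RS, and their summed level was 8.02 in D, 6.12 in RS and 54.7 in ES. None of the markers past the filter for spermatogonia (9), Leydig cells (3), peritubular and endothelial cells (8) or macrophages (2) differed by at least 2-fold between D and RS. Of 10 leptotene and zygotene markers, Hormad1 was at least 2-fold lower and the median was -0.80.

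Of Cre/+ nuclei named D, 24.4% carried a barcode that also occurs in the Nfya-CKO library, with a median of 9342 UMIs in Cre/+ against 906 in Nfya-CKO. For RS the share was 10.8%, with medians of 7841.5 and 777.5. In all, 10571 of 45250 cells carried a barcode of another library. At 11 dpp, 51 cells were named D, and of the 39 with both assays 82.1% were named L/Z/eP by scATAC-seq.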
